A study of Mus musculus with 16 samples.

Results

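The annexins measured here are the 9 genes Anxa1, Anxa2, Anxa3, Anxa4, Anxa5, Anxa6, Anxa7, Anxa11 and Anxa13, chosen as a family from the 54838 genes counted in whole mouse liver. All 9 were found by symbol. The family was picked with the rise of Anxa2 after carbon tetrachloride already known, so every value of the injection experiment is given as a description and without a test. Messenger RNA was sequenced from livers of male wild-type C57BL/6J mice in 4 groups. One pair of groups was injected into the peritoneum 3 days before the liver was taken, each at 2 µL/g, either with olive oil (n = 3) or with a 1:1 mix of the liver toxin carbon tetrachloride and oil (CCl4, n = 3). The other pair came from partial hepatectomy (PH): liver resected at surgery served as baseline (PH day 0, n = 5) and was compared with liver 3 days on (PH day 3, n = 5). No sham operation was analysed here, so the day 3 samples differ from their baseline by surgery and time together. The labels do not state that each sample is a separate animal, so p-values measure the spread between these samples, and day 0 and day 3 samples that share a number may share a mouse.

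Annexins are proteins that bind acidic phospholipids, above all phosphatidylserine, when calcium is present, through a core of repeated domains. Each member has its own amino-terminal tail, which sets its partners, such as S100 proteins. They act at membranes: in vesicle traffic, in sealing of torn plasma membrane, in organising actin under the membrane, and, once outside the cell, in limiting inflammation and in fibrinolysis. In healthy liver Anxa6 is known as an abundant member, and Anxa1 and Anxa2 are known more from bile duct and other non-parenchymal cells than from hepatocytes. In whole tissue, fewer cells of a type and less RNA per cell cannot be told apart.

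Total counts per sample were 2795909 to 8647503, and 3 counts in a sample corresponded to 0.368 to 1.03 CPM (counts scaled to a common library total by TMM factors over the 16 samples). Summed counts of the 9 hepatocyte markers matched were 79400 to 127000 CPM in every sample, in accord with the tissue label. Markers of dividing cells rose in 8 of 8 cases after PH and summed to 101 to 255 CPM at day 3 against 3.22 to 9.86 CPM at day 0. Changes are log2 fold changes ± SE, and a gene is said to rise or fall only in the PH comparison, where edgeR's quasi-likelihood test gave a Benjamini-Hochberg adjusted p under 0.05 over 10546 genes. By that rule 17.7% of all genes were called, 9.73% as risen and 8.01% as fallen.

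At day 3 after PH, 3 of the 8 annexins that could be tested rose, and 0 fell (1 was lower at an unadjusted p under 0.05, Anxa11, and DESeq2 also called 3 and 0). These were Anxa2, Anxa5 and Anxa1, at 3.66, 2.22 and 3.29 times their mean day 0 level. The other 5 did not pass, and Anxa13 was too low to be tested. Day 3 samples lay above every day 0 sample for Anxa2 and Anxa5, a separation that 6.75% of all genes showed upward, and no member lay wholly below, as 6.62% of all genes did. The same 3 genes had the 3 highest log2 fold changes of the family in the injection experiment, where 5 of 8 members were higher in every CCl4 sample than in any olive oil sample. Of all 11337 genes kept in that experiment, 21.4% were higher and 20.2% lower without overlap, and nothing is read from the members' count, since this contrast chose the family. The median change of the 8 members was 0.47 after PH and 0.72 for CCl4, against -0.01 and 0.01 over all genes.

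**Figure D1:**
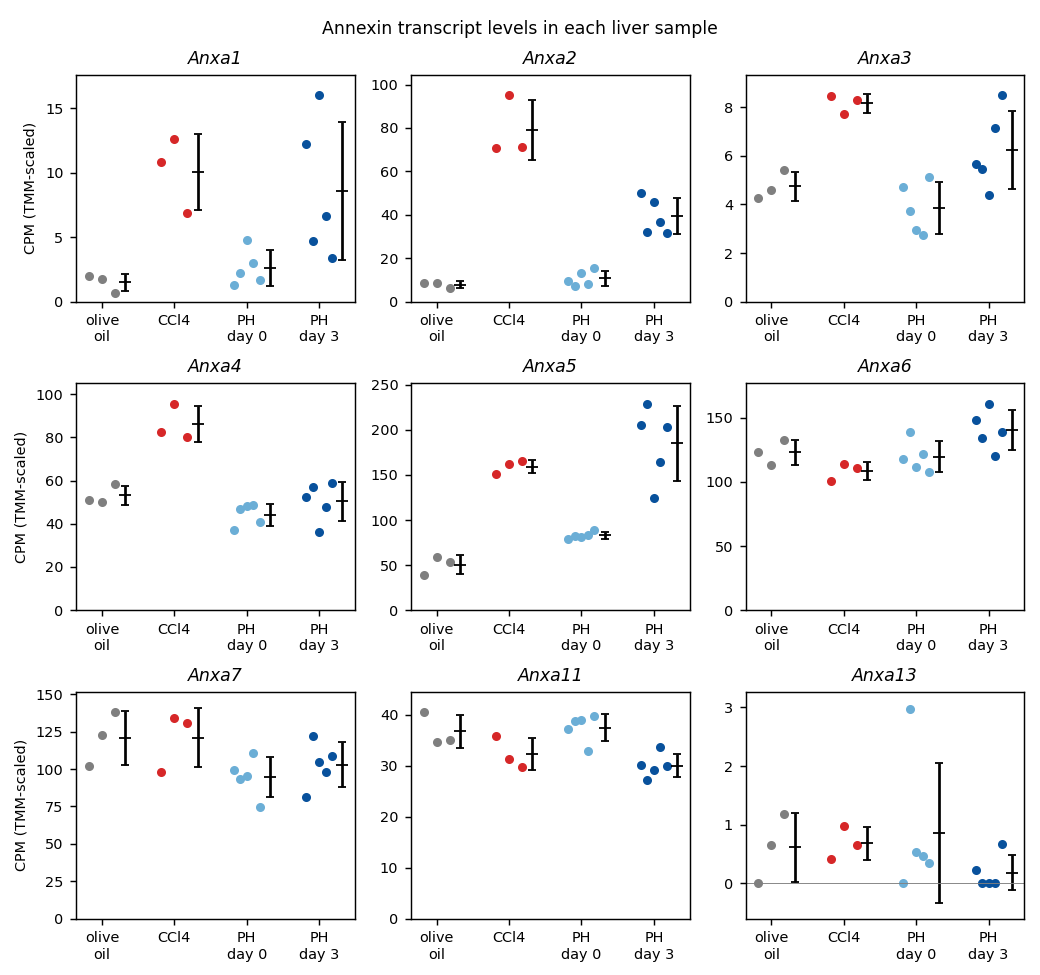
TMM-scaled CPM of each annexin in each of the 16 liver samples (points), with the mean and SD of each group beside them (n = 3, 3, 5 and 5), on linear axes that differ between panels. Anxa2 lies between 31.6 and 49.9 CPM at PH day 3 and between 70.7 and 95.1 CPM in CCl4, above both baselines, while Anxa6, Anxa7 and Anxa11 stay within overlapping ranges.

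The members that rose are shown first by the start of their genes, because these 3 rose after PH. Each sequence is RefSeq's promoter window on GRCm38.p6, from 250 bases before the start to 50 after, read 5′ to 3′ on the gene's strand, with matches to 5 fixed motifs in capitals.

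Anxa2, chr9:69453433-69453732, plus strand: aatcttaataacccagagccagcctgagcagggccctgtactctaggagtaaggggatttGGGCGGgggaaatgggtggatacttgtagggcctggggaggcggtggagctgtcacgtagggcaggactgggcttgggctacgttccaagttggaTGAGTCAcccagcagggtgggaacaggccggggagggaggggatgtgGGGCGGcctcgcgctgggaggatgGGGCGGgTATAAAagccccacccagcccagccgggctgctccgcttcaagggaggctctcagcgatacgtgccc

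Anxa1, chr19:20390622-20390921, minus strand: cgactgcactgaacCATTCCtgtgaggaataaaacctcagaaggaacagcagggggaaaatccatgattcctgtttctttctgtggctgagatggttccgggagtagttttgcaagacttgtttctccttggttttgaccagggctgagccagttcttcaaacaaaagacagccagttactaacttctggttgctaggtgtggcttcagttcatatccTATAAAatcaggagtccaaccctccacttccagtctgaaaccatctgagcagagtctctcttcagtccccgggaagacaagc

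Anxa5, chr3:36475838-36476137, minus strand: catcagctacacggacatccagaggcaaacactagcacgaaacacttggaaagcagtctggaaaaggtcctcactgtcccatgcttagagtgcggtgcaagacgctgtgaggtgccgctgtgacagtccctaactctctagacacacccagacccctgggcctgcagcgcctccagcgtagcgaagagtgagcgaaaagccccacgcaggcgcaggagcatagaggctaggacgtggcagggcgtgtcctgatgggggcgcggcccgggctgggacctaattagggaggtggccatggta

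The motifs, searched on both strands, were TGANTCA for AP-1, GGAATG for TEAD, GGGCGG as the GC box, TATAAA as the TATA box, and the CCAAT box by its own letters. The Anxa2 window held an AP-1 motif beginning 95 bases before the start, 3 GC boxes and a TATA box. Of all windows of that length, 7.81% held the AP-1 motif, 35.7% a GC box, 37.4% a CCAAT box and 13.6% a TATA box, over 32851 windows. The Anxa1 window held a TATA box and, on the opposite strand, the TEAD motif, which 14.7% of windows hold. The Anxa5 window held none of the 5, so that the 3 risen genes share no motif of this set. A GC box was also present in windows of Anxa4, Anxa7 and Anxa11, which did not pass after PH. Of the 9 members, 6 have an entry in the promoter table.

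Anxa2 binds S100a10 in a complex at the plasma membrane and is a surface receptor for plasminogen and its activator. The gene (ENSMUSG00000032231, chromosome 9, 69453620 to 69491795, plus strand of GRCm38) was at 9.71, 7.19, 13.3, 8.06 and 15.4 CPM in PH day 0 replicates 12 to 16. At PH day 3 it was at 49.9, 32.2, 46.0, 36.8 and 31.6 CPM in replicates 12 to 16. Every day 3 sample was above every day 0 sample. The change was 1.92 ± 0.20 (edgeR adjusted p = 3.3e-07, higher in 5 of 5 samples, 2.5e-27 to 7.6e-06 over 18 alternatives). In the injection experiment it was at 8.76, 8.77 and 6.12 CPM in olive oil and 70.7, 95.1 and 71.4 CPM in CCl4, a log2 fold change of 3.31 ± 0.21. The olive oil and PH day 0 levels overlapped, and the CCl4 samples were all above the PH day 3 samples. Because the file headers place the injection and surgical samples in 2 experiments, the difference between those groups cannot be told apart from the experiment.

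Anxa1 is an inhibitor of inflammation that is induced by glucocorticoids and acts on formyl peptide receptors of leukocytes. The gene (ENSMUSG00000024659, chromosome 19, 20373428 to 20390944, minus strand) rests on few reads, 5 to 18 counts per sample at day 0 and 10 to 54 at day 3. It was at 1.31, 2.23, 4.80, 2.99 and 1.71 CPM in PH day 0 replicates 12 to 16, and at 12.2, 4.68, 16.0, 6.67 and 3.4 CPM in the day 3 replicates of those numbers. Replicates 12, 14 and 15 were above every day 0 sample, and replicates 13 and 16 were within the day 0 range. Anxa1 rose by 1.77 ± 0.43 (edgeR adjusted p = 0.0065). In olive oil it was at 2.00, 1.75 and 0.706 CPM and in CCl4 at 10.8, 12.6 and 6.84 CPM, a log2 fold change of 2.73 ± 0.45 with no overlap.

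Anxa1 and Anxa2 were highest in the 2 day 3 samples with most mesothelial and stellate cell marker RNA, and Anxa5 was not. Summed mesothelial markers (6 genes, of which 1 could be tested) were 29.8, 7.53, 25.1, 9.88 and 5.10 CPM in day 3 replicates 12 to 16, against 1.03 to 1.73 CPM at day 0, where Upk3b and Krt14 were at 0. From highest to lowest the samples ran 12, 14, 15, 13 and 16 for this sum. Anxa2 ran 12, 14 and 15, and its replicates 13 and 16 (32.2 and 31.6 CPM) were too close to be ordered. Summed stellate cell and fibroblast markers were 874, 287, 721, 384 and 363 CPM, against 156 to 298 CPM at day 0, with none at 0. Of these markers 7 of 12 rose, the 3 collagen genes among them, where 9.73% of all genes tested rose. Lrat (0.08), Reln (-0.12), Dcn (0.26), Acta2 and Des did not pass, and Des was at 4.08 to 187 CPM at day 3. Summed bile duct markers took another order, at 184, 240, 173, 169 and 275 CPM in day 3 replicates 12 to 16. They were highest in replicates 16 and 13, where Anxa1 and Anxa2 were lowest. The part of any of these cell types in the annexin values was not tested. Without replicates 12 and 14, an alternative chosen after the data were seen, Anxa2 was at 1.68 (edgeR adjusted p = 7.6e-06) and Anxa5 at 1.26 (adjusted p = 4.7e-08). The call of Anxa1 ended, at 0.97 (edgeR adjusted p = 0.18, 2.0e-05 to 0.18 over 18 alternatives). Those samples held the highest day 3 values of Anxa1, 12.2 and 16.0 CPM, so that loss follows from the choice of samples and tests no cell type. Macrophage and monocyte markers summed to 210 to 398 CPM at day 3 and 212 to 314 CPM at day 0, and 0 of 7 tested passed with edgeR or DESeq2 (1 at an unadjusted p under 0.05). In CCl4 replicates 1, 2 and 3 the mesothelial sum was 16.9, 25.8 and 2.93 CPM, and Anxa1 took the same order. In olive oil that sum was 0.235 to 4.75 CPM, and Krt14 was at 0. The stellate sum was 485, 1180 and 785 CPM in the CCl4 replicates (176 to 221 CPM in olive oil). Both sums were highest in replicate 2, as was Anxa2, whose replicates 1 and 3 (70.7 and 71.4 CPM) were too close to be ordered. In CCl4, 9 of 12 stellate and 5 of 11 macrophage markers kept were higher than in olive oil without overlap, against 21.4% of all genes. The macrophage sum was 393, 429 and 610 CPM, against 171 to 511 CPM in olive oil, where Ly6c2 was at 0. That sum mixes changes in both directions. Mean Gpnmb was 0.318 CPM in olive oil and 44.8 CPM in CCl4, and Lyz2 49.0 and 129 CPM. Mean Clec4f was 96.0 and 52.9 CPM, and Vsig4 29.1 and 18.4 CPM, both with overlap. The part of these cells in the CCl4 values of Anxa1, Anxa2 and Anxa5 was not tested.

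**Figure D2:**
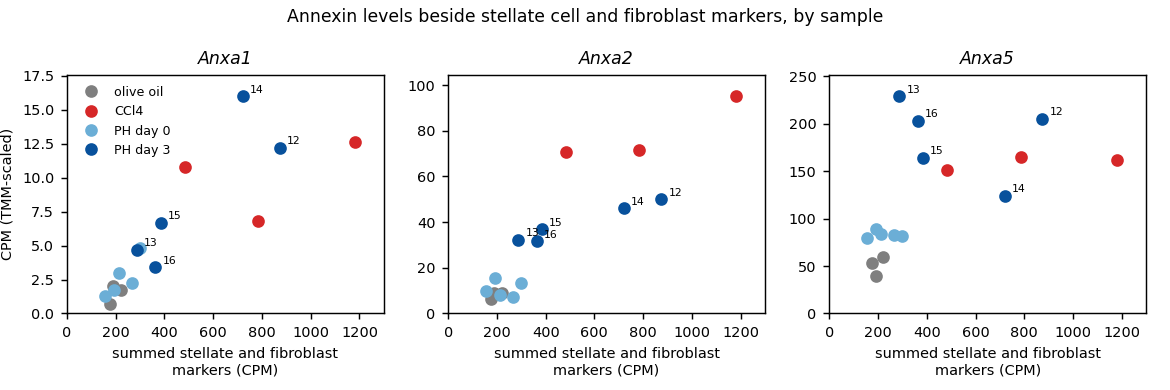
TMM-scaled CPM of Anxa1, Anxa2 and Anxa5 (vertical axes) against the summed CPM of 12 stellate cell and fibroblast markers (horizontal axes), 1 point per sample, coloured by group, with the replicate number beside each PH day 3 point. Day 3 replicates 12 and 14, at 874 and 721 CPM of marker, are the highest of the day 3 samples for Anxa1 and Anxa2, whereas replicate 13, at 287 CPM, is the highest for Anxa5.

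Anxa5 binds exposed phosphatidylserine and is widely used, labelled, to stain dying cells. The gene (ENSMUSG00000027712, chromosome 3, 36448923 to 36475894, minus strand) had 260 to 906 counts in each PH sample. It was at 79.2, 82.5, 81.5, 83.4 and 89.1 CPM in PH day 0 replicates 12 to 16, a narrow range, and at 205, 229, 124, 164 and 203 CPM at day 3. The lowest day 3 sample, replicate 14, was still above the highest day 0 sample. Anxa5 rose by 1.17 ± 0.13 (edgeR adjusted p = 1.7e-06, higher in 5 of 5 samples, 2.3e-26 to 2.3e-05 over 18 alternatives). In the injection experiment it was at 39.0, 59.2 and 53.0 CPM in olive oil and 151, 162 and 165 CPM in CCl4, a log2 fold change of 1.64 ± 0.17. The 2 baselines differed, since every PH day 0 sample was above every olive oil sample, and the experiment and the baseline cannot be told apart there. The CCl4 samples lay inside the range of the day 3 samples.

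Anxa3 and Anxa4 were higher without overlap in CCl4 and did not pass after PH. Anxa3, best known from neutrophils (ENSMUSG00000029484, chromosome 5, 96793339 to 96845966, plus strand), was at 4.25, 4.60 and 5.42 CPM in olive oil and 8.46, 7.73 and 8.31 CPM in CCl4, a log2 fold change of 0.76 ± 0.30. It was at 2.76 to 5.14 CPM at PH day 0 and 4.39 to 8.5 CPM at day 3, where 4 of 5 samples were above all of day 0, with a change of 0.70 ± 0.31 (edgeR adjusted p = 0.13). Its 11 to 36 counts in each PH sample limit this estimate. Neutrophil markers, 8 matched, summed to 1.03 to 3.92 CPM at day 0 and 4.07 to 17.2 CPM at day 3, with Ly6g at 0 in both groups and Cxcr2, Mmp8 and Ngp at 0 at day 0. They summed to 0.751 to 21.3 CPM in olive oil, with Ly6g at 0, and 7.61 to 70.0 CPM in CCl4, and their part in the Anxa3 values was not tested. Anxa4, an epithelial annexin found at the apical membrane (ENSMUSG00000029994, chromosome 6, 86736840 to 86793584, minus strand), was at 51.0, 50.2 and 58.4 CPM in olive oil and 82.7, 95.6 and 80.0 CPM in CCl4, a log2 fold change of 0.68 ± 0.14. After PH it was at 36.3 to 58.8 CPM against 37.1 to 48.6 CPM, a change of 0.21 ± 0.13 (edgeR adjusted p = 0.30). Bile duct markers, 10 matched, were at 169 to 275 CPM summed at day 3 and 98.1 to 212 CPM at day 0, where 0 of 3 tested passed with edgeR or DESeq2 (0 at an unadjusted p under 0.05). They were at 194 to 314 CPM in CCl4 and 76.1 to 124 CPM in olive oil, with Cldn4 at 0 in olive oil, and their part in the Anxa4 values was not tested.

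Anxa6, Anxa7 and Anxa11 had overlapping groups in both experiments. Anxa6, a large member with a doubled core that acts on late endosomes and cholesterol (ENSMUSG00000018340, chromosome 11, 54979108 to 55033445, minus strand), was at 118, 139, 112, 122 and 108 CPM in PH day 0 replicates 12 to 16. At day 3 it was at 148, 134, 161, 120 and 139 CPM, with 3 of 5 samples above all of day 0, and the change was 0.24 ± 0.10 (edgeR adjusted p = 0.086). It passed with library size scaling, which shifts the median of all genes by 0.14, at 0.38 (adjusted p = 0.015, the lowest of 18 alternatives, whose highest was 0.49). Its call also appeared without PH day 0 replicate 13 or PH day 3 replicate 15, at 0.30 each time (adjusted p = 0.043 and 0.048). Anxa11, which links RNA granules to lysosomes (ENSMUSG00000021866, chromosome 14, 25842156 to 25886804, plus strand), was at 37.2, 38.7, 38.9, 32.9 and 39.8 CPM at day 0 and 30.1, 27.3, 29.1, 33.6 and 29.9 CPM at day 3. It was below all of day 0 in 4 of 5 day 3 samples, at -0.30 ± 0.12 (edgeR adjusted p = 0.085). Anxa7, which binds sorcin and acts in membrane fusion (ENSMUSG00000021814, chromosome 14, 20455260 to 20480133, minus strand), was at 74.4 to 111 CPM at day 0 and 81.1 to 122 CPM at day 3, or 0.13 ± 0.11 (edgeR adjusted p = 0.48).

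After injection the 3 genes were at 113 to 133 CPM (Anxa6), 102 to 138 CPM (Anxa7) and 34.6 to 40.5 CPM (Anxa11) in olive oil. In CCl4 they were at 101 to 114, 98.2 to 134 and 29.7 to 35.8 CPM. Their log2 fold changes were -0.20 ± 0.14, -0.02 ± 0.17 and -0.21 ± 0.16, and turned to 0.26, 0.46 and 0.23 with library size scaling, which shifts the median of all genes by 0.45 there. That shift applies to all genes alike, and with RLE size factors, which shift the median by 0.02, the 3 genes were at -0.18, 0.00 and -0.19. Anxa1, Anxa2, Anxa3, Anxa4 and Anxa5 were on the higher side under the 3 scalings run (TMM, RLE and library size).

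**Figure D3:**
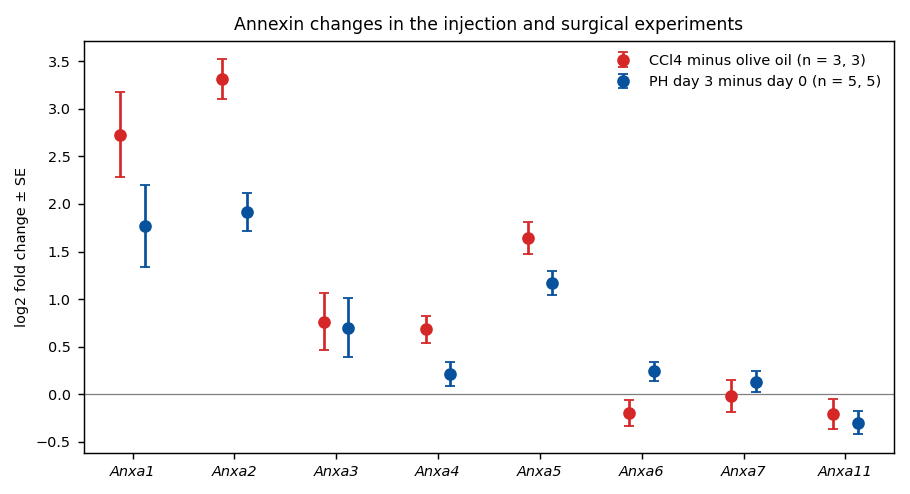
Log2 fold change ± SE of the 8 annexins kept in both fits, for CCl4 minus olive oil (red, n = 3 and 3) and PH day 3 minus day 0 (blue, n = 5 and 5), with 0 as a grey line. Anxa2 is at 3.31 and 1.92, Anxa1 at 2.73 and 1.77 and Anxa5 at 1.64 and 1.17, and Anxa6, Anxa7 and Anxa11 lie between -0.30 and 0.24.

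Anxa13, a member anchored by a fatty acid and best known from intestine (ENSMUSG00000055114, chromosome 15, 58341471 to 58389244, minus strand), had 42 counts over all 16 samples and entered no test. It had 0, 12, 2, 2 and 1 counts in PH day 0 replicates 12 to 16 and 3 counts in all at day 3, so replicate 13 alone carried most of the day 0 counts. The olive oil group had 8 counts and the CCl4 group 14. Among the family's 3 genes outside the chosen set, Anxa10 had 0 counts in all 16 samples, which allows up to 0.368 to 1.03 CPM by sample. Anxa8 had 0 counts over the PH day 0 group and 24 over day 3, in 4 of 5 samples, and was too low to be tested there. Its counts in day 3 replicates 12 to 16 were 11, 3, 4, 6 and 0. Pooled, day 3 was 9.67-fold above a floor of 3 counts over the day 0 group, a figure that leaves out the spread between samples. Anxa9 had 24 and 48 counts, at 0.685 to 1.44 CPM and 0.779 to 5.10 CPM.

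Compared per length, as CPM per kilobase of counted exon, the family was led by Anxa5 and Anxa6. In PH day 0 Anxa5 was at 46.8 ± 2.07 and Anxa6 at 40.9 ± 4.13 CPM per kb (SD, n = 5), and their ranges overlapped. Anxa7 followed at 15.8 ± 2.23, then Anxa4 (9.53 ± 1.09) and Anxa11 (9.07 ± 0.653), which overlapped each other, then Anxa2 at 2.88 ± 0.942. Anxa3, Anxa1 and Anxa13 came last, at 1.06 ± 0.29, 1.00 ± 0.527 and 0.64 ± 0.889 CPM per kb, with overlapping ranges. Olive oil gave the other order at the top, Anxa6 at 42.0 ± 3.4 above Anxa5 at 28.4 ± 5.81 CPM per kb (n = 3, no overlap), followed by Anxa7, Anxa4, Anxa11, Anxa2, Anxa3, Anxa1 and Anxa13. The neighbours whose ranges overlapped there were Anxa5 with Anxa7 and Anxa1 with Anxa13.

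At PH day 3 Anxa5 was at 104 ± 23.3 CPM per kb, above Anxa6 in every sample, and made up 50.8 ± 6.77% of the summed annexin level per length, against 36.7 ± 2.19% at day 0. Anxa2, at 10.5 ± 2.22 CPM per kb, had passed Anxa11 in 5 of 5 samples and overlapped Anxa4 (10.9 ± 1.93), and its share was 5.27 ± 1.36% against 2.27 ± 0.796%. In CCl4 the order was Anxa5 (89.7 ± 3.98 CPM per kb), Anxa6, Anxa2 (21.2 ± 3.73), Anxa7, Anxa4, Anxa11, Anxa1, Anxa3 and Anxa13, in which Anxa2 and Anxa7, and Anxa7 and Anxa4, overlapped. There Anxa5 made up 44.6 ± 1.74% and Anxa2 10.5 ± 1.27% of the summed level, against 24.5 ± 3.97% and 1.85 ± 0.464% in olive oil. The summed level per length was 128 ± 4.91 at PH day 0, 203 ± 21.9 at PH day 3, 115 ± 8.70 in olive oil and 201 ± 12.8 CPM per kb in CCl4.

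**Figure D4:**
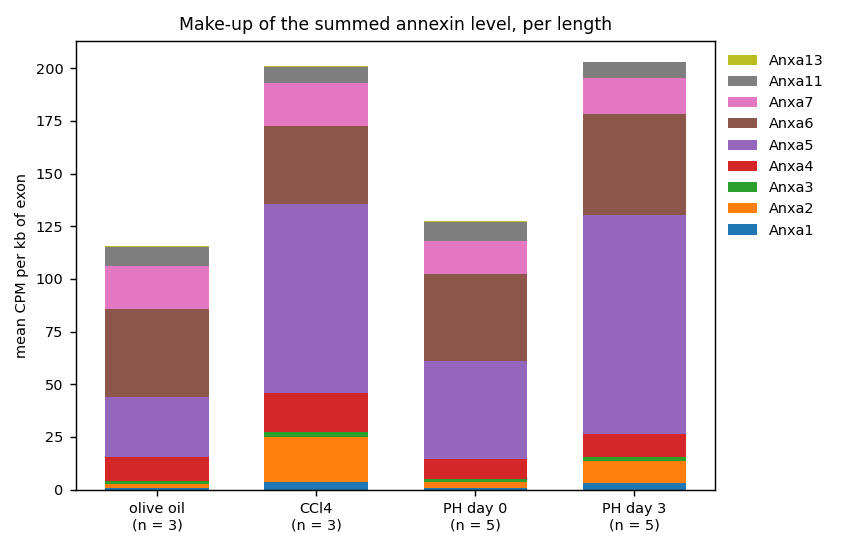
Stacked bars of the mean CPM per kb of exon of the 9 annexins in each group (n = 3, 3, 5 and 5), without error bars, on a linear axis from 0. The Anxa5 segment goes from 46.8 to 104 CPM per kb between PH day 0 and day 3 and the Anxa2 segment from 2.88 to 10.5, while the Anxa6 segment is 37.1 to 47.9 in all groups.

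Direct binding partners were taken from a list of 12 S100 and other calcium-binding genes. After PH, 2 of the 7 that could be tested rose and 1 fell, against 9.73% and 8.01% of all genes tested. S100a10, the partner of Anxa2, was at 96.3, 81.8, 52.5, 79.2 and 75.7 CPM in PH day 0 replicates 12 to 16 and at 117, 136, 131, 116 and 115 CPM at day 3, with no overlap, and rose by 0.68 ± 0.12 (edgeR adjusted p = 0.00026). S100a11, which binds Anxa1, went from 1.18 to 2.93 CPM to between 5.29 and 11.6 CPM, also with no overlap, and rose by 2.04 ± 0.35 (edgeR adjusted p = 0.00016). S100a1, a calcium sensor of muscle and other tissues, fell by 0.35 ± 0.11 on the log2 scale (edgeR adjusted p = 0.030). The S100a1 call was lost when PH day 0 replicate 12 or 15 or PH day 3 replicate 12, 15 or 16 was dropped (adjusted p from 0.059 to 0.086) and with library size scaling (0.21, with 0.011 the lowest of 18 alternatives). S100a6, which binds several annexins, was too low to be tested, at 0 to 1.86 CPM at day 0 and 0.680 to 6.58 CPM at day 3. Pdcd6, a partner of Anxa7 and Anxa11, was at -0.27 ± 0.15 (adjusted p = 0.24), and Sri, which encodes sorcin, at -0.14 ± 0.11 (adjusted p = 0.44).

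With olive oil and CCl4, S100a10 was at 45.3, 55.5 and 41.2 CPM in olive oil and 94.2, 111 and 118 CPM in CCl4. S100a11 was at 2.00, 2.41 and 0.471 CPM against 15.4, 10.8 and 12.9 CPM, and S100a6 at 0.500, 1.97 and 1.88 CPM against 18, 14.0 and 5.38 CPM. None of these 3 overlapped between groups. Pdcd6 was lower (47.5 to 55.4 CPM against 58.6 to 67.1 CPM) and Sri higher (37.8 to 45.9 CPM against 31.8 to 34.9 CPM), each without overlap. Of the 10 list members kept there, 5 were higher and 3 lower without overlap, against 21.4% and 20.2% of all genes kept.

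**Figure D5:**
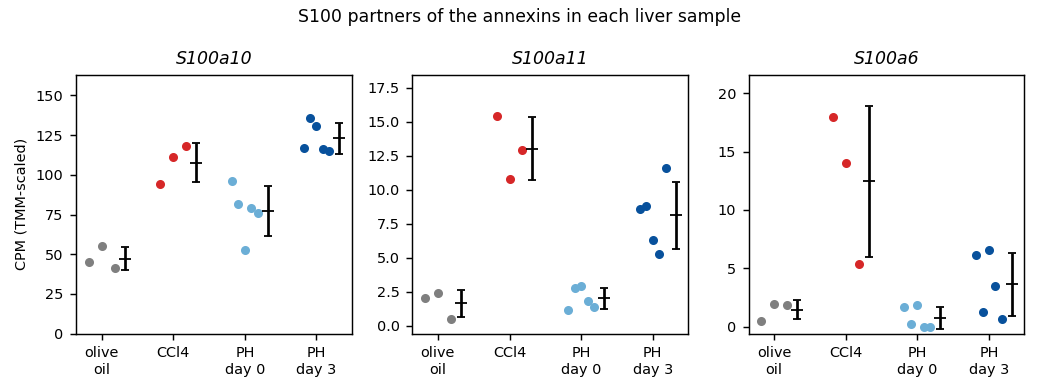
TMM-scaled CPM of S100a10, S100a11 and S100a6 in each of the 16 samples (points) with the mean and SD of each group beside them (n = 3, 3, 5 and 5), on linear axes that differ between panels. S100a10 lies at 115 to 136 CPM at PH day 3 and at 52.5 to 96.3 CPM at day 0, and S100a6 at 5.38 to 18 CPM in CCl4 and at 0.500 to 1.97 CPM in olive oil.

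Among 8 genes of the plasminogen system, the cascade that Anxa2 and S100a10 bind, 4 could be tested after PH. Of these, Plgrkt, a membrane receptor for plasminogen, rose (0.90 ± 0.29, edgeR adjusted p = 0.033), from 5.12 ± 1.64 to 9.18 ± 2.80 CPM (SD, n = 5). The Plgrkt call was lost when PH day 0 replicate 12, 13 or 14 or PH day 3 replicate 12, 13 or 14 was dropped (adjusted p from 0.053 to 0.1), and it reached 0.18 when day 3 replicates 12 and 14 were dropped together (lowest of 18 alternatives 0.015). Plasminogen itself (Plg) was at 2960 ± 111 and 2890 ± 313 CPM, or -0.02 ± 0.10 (adjusted p = 0.91), and was named after its value was seen. Of the 5 formyl peptide receptor genes, 3 had 0 counts in all samples and none could be tested after PH. The list's median after PH was -0.01 for the plasminogen system, and 3 of its 6 genes kept in the injection experiment were higher without overlap in CCl4. Of all genes kept there, 21.4% were higher without overlap.

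Of 23 genes of plasma membrane repair and its calcium-dependent machinery, 21 could be tested after PH, of which 4 rose and 1 fell, with a median of 0.09. Of all genes tested, 9.73% rose and 8.01% fell. Cavin1, a coat protein of caveolae, rose from 4.46 ± 1.61 to 13.6 ± 6.51 CPM (1.66 ± 0.32, edgeR adjusted p = 0.00076). Ehd2, an ATPase at the neck of caveolae, rose by 1.46 ± 0.36 (edgeR adjusted p = 0.0050), and Chmp4c, a subunit of the ESCRT-III membrane scission machinery, by 1.12 ± 0.35 (edgeR adjusted p = 0.028). Myof (myoferlin) rose by 1.12 ± 0.35 (edgeR adjusted p = 0.029) and Chmp3, another ESCRT-III subunit, fell by 0.32 ± 0.11 on the log2 scale (edgeR adjusted p = 0.034), both named after their values were seen. Dropping single samples ended the call of Chmp4c (PH day 0 replicate 12, 13 or 15, day 3 replicate 12, 15 or 16, adjusted p from 0.05 to 0.093). The Myof call depended on PH day 0 replicates 12, 14, 15 and 16 and day 3 replicates 12 and 14 (0.059 to 0.085 without each), and that of Chmp3 on PH day 0 replicates 13, 15 and 16 and day 3 replicates 12 and 15 (0.058 to 0.097). Chmp3 also lost its call with library size scaling, at -0.19 (adjusted p = 0.27), and Chmp4c and Myof lost theirs with no filter on low counts (0.081 and 0.058). Without PH day 3 replicates 12 and 14 together, 1 gene of the list was called, Cavin1 (1.39, adjusted p = 0.006), and Ehd2 was at 0.99 (adjusted p = 0.11). In CCl4 6 of 21 were higher and 1 lower without overlap, against 21.4% and 20.2% of all genes kept, with a median of 0.22.

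Of 19 genes for the recognition of phosphatidylserine, the lipid that annexins cover, 15 could be tested after PH, and 3 rose and 0 fell (1 lower at an unadjusted p under 0.05, and 0 by DESeq2), with a median of 0.31. Of all genes tested, 9.73% rose and 8.01% fell. The 3 list genes that rose encode bridging proteins that link the lipid on dying cells to receptors on phagocytes. Pros1 rose from 74.3 ± 9.20 to 111 ± 11 CPM (0.60 ± 0.10, edgeR adjusted p = 0.00013), Gas6 by 0.83 ± 0.20 (edgeR adjusted p = 0.014) and Mfge8 by 0.82 ± 0.26 (edgeR adjusted p = 0.035). The Mfge8 call was lost when PH day 0 replicate 12, 14, 15 or 16 or PH day 3 replicate 12 or 16 was dropped (adjusted p from 0.056 to 0.086, with 0.00039 the lowest of 18 alternatives). Gas6 lost its call in the 4-group fit (adjusted p = 0.12, with 5e-09 the lowest). In CCl4 8 of 16 were higher and 1 lower without overlap, against 21.4% and 20.2% of all genes kept, with a median of 0.58.

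The genes whose levels were most like Anxa2 over all 16 samples, by Pearson's r of log2(CPM + 1) among 9260 genes, were Ncaph (r = 0.970), Ccna2 (0.966), Zwilch (0.965), Top2a (0.958) and Arhgap11a (0.955). Ncaph encodes a condensin subunit, Ccna2 cyclin A2, Zwilch a kinetochore protein and Top2a the topoisomerase of dividing cells. Ccna2 was at 0.397 ± 0.155 CPM in olive oil, 61.4 ± 30.3 in CCl4, 1.90 ± 1.06 at PH day 0 and 26.8 ± 5.93 at PH day 3 (SD, n = 3, 3, 5 and 5). All points share the 4 groups, so r mixes differences between groups with those within them, and it is a description. Within the day 3 group the orders parted, since the summed dividing cell markers were lowest in replicate 12 (101 CPM), where Anxa2 was highest, and highest in replicate 15 (255 CPM). In CCl4 replicates 1 to 3 that sum was 229, 526 and 347 CPM. Anxa2 was also highest in replicate 2 there, with replicates 1 and 3 nearly equal. Among the members the highest r was between Anxa1 and Anxa2 (0.880), then Anxa2 and Anxa5 (0.829), and the lowest between Anxa5 and Anxa11 (-0.764). There were 98 genes more like Anxa2 than Anxa1 was.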

How the data were processed

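Reads of 16 whole liver libraries were counted by the authors and deposited as raw counts per gene, 1 file per sample. Per the file headers, featureCounts 1.6.2 summed reads over exons of Ensembl release 95 (GRCm38), reverse-stranded and with default handling of ambiguous reads, so antisense partners such as Anxa11os are counted apart. STAR 2.5.1 and Subread were used, per the submitters' processing notes. A reference table of gene names gave symbols for 54723 of 54838 identifiers.

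The PH samples alone were fitted in edgeR 4.0.16 (R 4.3.3) with TMM scaling, filterByExpr (minimum count 10, total 15) and a robust quasi-likelihood model, and a gene counted as called below an adjusted p of 0.05. The injected groups had a like fit, from which only fold changes were taken. Standard errors were derived from the fold change and its F statistic. Levels in CPM were scaled with TMM over the 16 samples, and those per kb divided by exon length as listed in the files. Floors (3 counts in a sample) cover counting error only, whereas SE and SD include the spread between samples. Replicates within a group differed by more than sampling noise (chi-square per degree of freedom 5.51 to 72.3). On simulated PH counts (10398 genes), 28.1%, 74.2% and 98.4% of genes changed 1.5-, 2- and 4-fold were called, and 9 of 138 calls were false. Only 64, 66 and 63 genes were changed at these folds, fewer than were called in the data, so the rates hold for that setting.

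Members, gene lists, motifs, tests and alternatives were chosen with earlier results of these data known. Named genes were the 9 members, 5 direct partners, up to 3 called genes of smallest adjusted p per list, and the 5 genes most like Anxa2 with mean CPM of at least 5 and a count in every sample. One hepatocyte marker of 10 matched no symbol. Alternatives were RLE size factors, library size scaling, DESeq2 1.42.0, no filter, a filter of 1 CPM, a 4-group fit, the replicate block, each sample left out, and, added after the data were seen, day 3 replicates 12 and 14 left out together. Python 3.11.15, pandas 2.3.3 and matplotlib 3.10.9 made tables and figures.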

Additional observations from a re-analysis of the deposited data

Results flagged for a closer look

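Anxa13 was at 2.97 CPM in PH day 0 replicate 13, far above the other 4 day 0 samples, which were at 0 to 0.533 CPM. This value rests on 12 counts. The gap between the highest sample and the next was over 0.71 of the group's range. Groups of 3 were not checked in this way. Chance alone gives such a gap in about 1 of 20 groups, and 21 groups were checked.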

How the results depend on the processing

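After PH, Anxa2 and Anxa5 kept their direction and their call under all 18 alternatives, and Anxa1 under 17, with the exception given in the report. The count of members called was 3 to 4 with each sample left out in turn, and that of all genes 1599 to 1810. Deviations from the group means correlated at 0.062, -0.019, -0.048, 0.072 and 0.134 between same-numbered day 0 and day 3 samples, for replicates 12 to 16. Day 3 replicates 12, 15 and 16 correlated best with the day 0 sample of their own number, and replicates 13 and 14 did not. Correlations this small cannot tell whether the numbers mark pairs, and the main fit did not use them. With the replicate block 3 members and 1864 genes were called, against 1871, and the plasminogen list had 0 calls. Among the partners named, the block ended the calls of Plgrkt (0.89, edgeR adjusted p = 0.059) and Chmp4c (1.11, adjusted p = 0.056). Counts of list genes called after PH moved by over 1.5 times without a filter for the other annexins (1 gene, against 0), the S100 list (6, against 3) and the plasminogen list (4, against 1). The plasminogen list also had 2 calls with a filter of 1 CPM, 3 in the 4-group fit and 0 without day 3 replicates 12 and 14, which left the membrane repair list with 1, against 5. With each sample left out, the plasminogen list had 0 to 1 and the membrane repair list 2 to 5 calls. For CCl4, the median of the members was 1.17 with library size scaling, against 0.72. That scaling also moved the summed annexin CPM from 399 to 354 in olive oil, 606 to 729 in CCl4 and 397 to 373 at PH day 0. Depth limits Anxa1, Anxa3 and above all Anxa13, Anxa8 and Anxa9, whose counts per sample ran from 0 to 103.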
